A study of Mus musculus with 3 samples.

Results

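Early granular keratinocytes with little Lce1 RNA made up 302 of the 5340 cells kept from the ear epidermis of C57BL/6N mice aged 9 weeks. They were chosen by 2 values: the transcript of loricrin (Lor) took at least 1% of the cell's unique molecular identifiers (UMIs, counted cDNA molecules), and all genes with symbols starting Lce1 together took under 2%. Cells entered if they had at least 500 detected genes and at most 10% mitochondrial UMIs. The 3 libraries, replicates 1 to 3, belong to 1 untreated group of the inbred strain, with no transgene or agent named. Epidermal sheets were lifted with dispase and dissociated in Trypsin/EDTA, and the cells were cryopreserved before droplet capture. Replicates 1, 2 and 3 gave 45, 112 and 145 early granular cells, or 4.77%, 5.06% and 6.64% of the kept cells (95% exact binomial intervals, for counting error only, of 3.50 to 6.33%, 4.19 to 6.06% and 5.63 to 7.77%). The mean share was 5.49% ± 1.01 (SD, n = 3 libraries).

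The 2 most like classes served for comparison. Spinous cells (2101) had Krt1 and Krt10 summing to at least 0.5% of UMIs, Krt5 and Krt14 under 0.5% and Lor under 1%. Late granular cells (123, of which replicate 1 held 12) passed the same Lor value but had Lce1 genes at 2% or more. Nothing in the labels ties each replicate to an animal of its own, and the p-values therefore cover only the spread between these libraries, which may be technical.

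The granular layer is the last living layer of the epidermis. Its keratinocytes stop making the spinous keratins and fill with keratohyalin granules of profilaggrin and loricrin. They secrete lamellar granules that carry ceramide precursors, proteases and protease inhibitors into the space between cells, seal the layer with tight junctions, and then lose nucleus and organelles to become corneocytes. Loricrin, the filaggrin family (Flg, Flg2, Hrnr) and the late cornified envelope proteins (Lce) are encoded together in the epidermal differentiation complex.

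The promoters of the genes that mark these cells are shown because the cells were picked by one of them (Lor) and are described by the others. Of Lor and the 4 further markers (Wfdc21, Serpina12, Flg2, Hrnr), 4 had an entry among the RefSeq promoters of build GRCm38.p6, and Wfdc21 had none. Printed are the 250 bases before the annotated start, 5′ to 3′ on the gene's own strand: Lor at chr3:92083143-92083392 (minus strand), Flg2 at chr3:93197023-93197272 (plus), Hrnr at chr3:93319499-93319748 (plus) and Serpina12 at chr12:104044444-104044693 (minus). Capitals mark every match, on either strand, to the AP-1 letters TGANTCA, the Grainyhead-type letters AACCNGTT, the Krüppel-type letters GGGNGTGG or the TATA letters TATAAA, and no matches overlapped.
Lor: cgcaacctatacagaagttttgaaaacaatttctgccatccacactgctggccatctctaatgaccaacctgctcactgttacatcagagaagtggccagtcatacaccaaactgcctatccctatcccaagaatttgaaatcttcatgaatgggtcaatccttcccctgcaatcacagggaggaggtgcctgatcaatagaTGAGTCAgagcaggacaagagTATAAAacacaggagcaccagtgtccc
Flg2: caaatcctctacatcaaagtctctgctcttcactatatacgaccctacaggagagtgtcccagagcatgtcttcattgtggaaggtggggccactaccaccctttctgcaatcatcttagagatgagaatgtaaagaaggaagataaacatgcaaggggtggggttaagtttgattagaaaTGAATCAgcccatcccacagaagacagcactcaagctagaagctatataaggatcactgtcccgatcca
Hrnr: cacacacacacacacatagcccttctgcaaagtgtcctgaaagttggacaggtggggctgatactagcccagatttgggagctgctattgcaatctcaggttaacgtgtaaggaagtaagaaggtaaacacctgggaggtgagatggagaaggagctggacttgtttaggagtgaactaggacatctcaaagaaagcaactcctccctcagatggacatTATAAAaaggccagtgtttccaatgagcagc
Serpina12: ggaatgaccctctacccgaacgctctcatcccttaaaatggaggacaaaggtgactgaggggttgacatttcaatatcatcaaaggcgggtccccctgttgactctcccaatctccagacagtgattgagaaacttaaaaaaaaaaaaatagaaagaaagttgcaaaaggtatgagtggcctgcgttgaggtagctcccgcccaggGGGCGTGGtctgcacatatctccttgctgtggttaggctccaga

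Lor held an AP-1 match that began 48 bases before the start and a TATA match at 27 bases, Flg2 an AP-1 match at 69 bases, Hrnr a TATA match at 31 bases and Serpina12 a Krüppel-type match at 44 bases. The Grainyhead-type letters were in none of these 4 windows. Of 32851 promoters of 27025 genes, windows of the same length held the AP-1 letters in 6.75%, the Grainyhead-type letters in 1.79%, the Krüppel-type letters in 15.9% and the TATA letters in 12.4%. Among promoters of genes tested in the comparison with spinous cells, the AP-1 letters were in 6.83% of the 1815 promoters of genes at least 2-fold higher in early granular cells, in 4.05% of the 2125 of genes at least 2-fold lower, and in 4.73% of all 8724. In the same order (higher, lower, all tested) the shares were 1.54%, 1.98% and 1.65% for the Grainyhead-type letters, 21.4%, 23.7% and 21.0% for the Krüppel-type letters and 7.38%, 6.02% and 6.19% for the TATA letters. A match is a run of letters and not a measured binding site.

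The 3 libraries held 6078 barcodes with 15926683, 24480473 and 28176712 UMIs. Early granular cells had median totals of 28378, 18007 and 18892 UMIs per cell in replicates 1 to 3, against 21093, 13599 and 15138 in spinous and 30185, 19882 and 26190 in late granular cells. Median genes per cell were 3573, 2986 and 3063 in early granular cells but 1577, 1828 and 2038 in late granular cells. The median mitochondrial share was 1.90 to 1.98% in early granular and 3.50 to 3.84% in spinous cells. Scrublet marked 1 early granular, 0 late granular and 16 spinous cells as doublets. Of kept barcodes, 3 were shared by replicates 1 and 2, 0 by 1 and 3, and 8 by 2 and 3, with 1 early granular cell among them.

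The cells were set against marker lists. The 4 granular markers outside the gate were given for this class, so their level is a description and no check of the label. They summed to 25132 to 27880 CPM (counts scaled to the same total in each profile) in the early granular cells of the 3 libraries. Late granular cells had 17169 to 19710 CPM and spinous cells 576 to 1256 CPM. The CPM total leaves out the 19 gate genes (Lor, 14 Lce1 genes, Krt1, Krt10, Krt5 and Krt14). Basal markers summed to less in early granular (131 to 154 CPM over 8 genes) than in spinous cells (490 to 620 CPM). Krt15 (186 of 5834629 early granular against 890 of 33185930 spinous UMIs) and Lamb3 (18 against 69) were not lower by share. The other basal genes of the list were. The 6 spinous markers outside the gate summed to more, at 46140 to 49471 CPM against 23943 to 26241 CPM in spinous cells. Krtdap, Sbsn, Dsc1 and Skint3 had a higher share in early granular cells. Mt4 (1368 against 167206 spinous UMIs) and Dsg1a (3238 against 35594) had a lower share of the same totals. Most of that early granular sum was Krtdap and Sbsn (141801 and 109016 UMIs). Follicle markers summed to 82.6 to 116 CPM, mostly Krt17 (379 UMIs), with Lgr5 and Lhx2 at 0. Sebocyte markers summed to 38.2 to 60.6 CPM with Cidea and Elovl3 at 0. Fibroblast markers reached at most 4.88 CPM (5 of 6 at 0), melanocyte markers 0.551 CPM (5 of 6 at 0), T cell markers 1.63 to 9.92 CPM, and the erythroid list 0.407 to 1.65 CPM with 3 of 4 at 0. Pecam1 gave all 64 endothelial UMIs, with Cdh5, Kdr and Flt1 at 0. The Langerhans list reached 965 to 1189 CPM, but nearly all of it was Epcam (973 ± 59.3 CPM), which keratinocytes also express. Cd207, the defining marker, had 2 UMIs. Of 369 UMIs of Cd74 and the class II genes H2-Aa, H2-Ab1 and H2-Eb1, 305 sat in a single early granular cell of replicate 2.

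**Figure D1:**
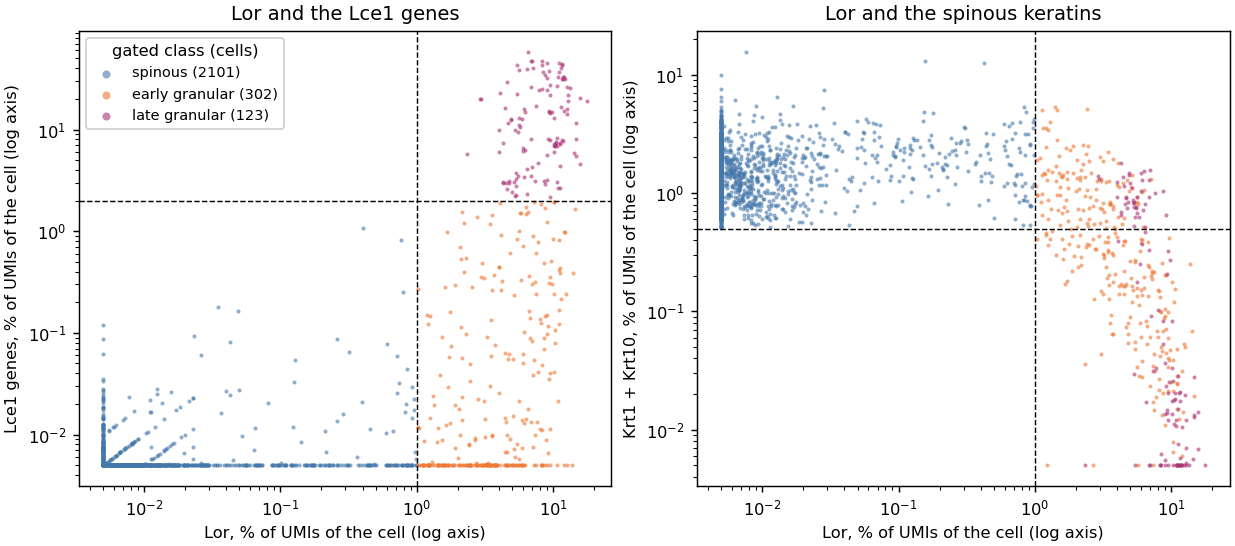
Every early granular (302), late granular (123) and spinous (2101) cell by its share of Lor (x axis) and of Lce1 genes (left) or Krt1 plus Krt10 (right), in % of the cell's UMIs on log axes; values under 0.005% are drawn at 0.005% and dashed lines mark the cutoffs of 1, 2 and 0.5%. Early granular cells run in a continuous band from high to low keratin as Lor rises, and late granular cells fall both above and below the keratin line.

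Loricrin, the main protein of the mouse cornified envelope, took 6.17%, 4.38% and 4.46% of all early granular UMIs in replicates 1 to 3. The same share was 10.8%, 8.87% and 7.31% in late granular cells and 0.0372% ± 0.0165 (n = 3) in spinous cells. Per cell, Lor ran from 1.02 to 14.6% of UMIs with a median of 3.67%. Lce1 UMIs were not seen in 105 of the 302 cells (34.8%). Krt1 plus Krt10 reached the spinous level of 0.5% in 122 early granular cells (40.4%), and Krt5 plus Krt14 reached 0.5% in 10.

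The cells next to the cutoffs differed from library to library. The 23 cells closest above the Lor cutoff held Wfdc21 at 7037 ± 2159 CPM and Flg2 at 2115 ± 359 CPM, and the 31 cells with 0.75 to 1% held 5052 ± 2609 and 1653 ± 954 CPM (n = 3 libraries). Replicate 1 gave only 4 of the cells inside and 2 of those outside, with Flg2 at 2134 CPM inside and 2611 CPM outside. In replicate 3 the step was wide, from 3013 CPM outside to 9198 CPM inside for Wfdc21 and from 704 to 2464 CPM for Flg2, while in replicate 2 Wfdc21 was at 7992 CPM outside and 7035 CPM inside. On the other side, the 19 cells with Lce1 genes at 1 to 2% held Flg2 at 9288 ± 482 CPM and the 13 with 2 to 3% at 7267 ± 1382 CPM, and Hrnr was at 5256 ± 1988 and 3292 ± 872 CPM. Replicate 1 gave 7 of the 19 and 2 of the 13.

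The 4 markers were all high in early granular cells, but they were ordered differently towards the late granular class. Wfdc21, a secreted protein of the whey acidic protein family, was at 12377, 10755 and 10978 CPM in early granular cells, 176, 461 and 155 CPM in spinous cells and 4168, 7253 and 9264 CPM in late granular cells. It was therefore higher in the early cells of every library, but most so in replicate 1, whose late profile held 12 cells. Without replicate 1 the log2 difference was 0.37 and did not pass (edgeR adjusted p = 0.45). Nor did it pass with DESeq2 (0.44), without the library block (0.15) or against late cells under 0.5% Krt1 plus Krt10 (0.11). Flg2, a filaggrin paralog, was at 5980, 5880 and 5414 CPM in early granular cells, 31.0, 103 and 53.4 CPM in spinous cells and 12123, 14110 and 10919 CPM in late granular cells, so its highest class was the late one. Hrnr, another S100-fused filaggrin paralog, was at 5969, 4955 and 5823 CPM against 154, 259 and 237 CPM in spinous cells. Its late granular values of 4350, 5136 and 7184 CPM overlapped the early ones. Serpina12, the serpin called vaspin that inhibits kallikrein 7, was at 2645, 2295 and 2354 CPM against 68.5, 103 and 51.6 CPM, and at 1899, 2244 and 2356 CPM in late granular cells, again with overlap. These genes were given as markers of the class, so their levels are a description and no test is offered in their support. As a background for such gaps, the values of the 3 libraries did not overlap for 76.1% of all tested genes between early granular and spinous cells and for 35.1% between early and late granular cells.

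**Figure D2:**
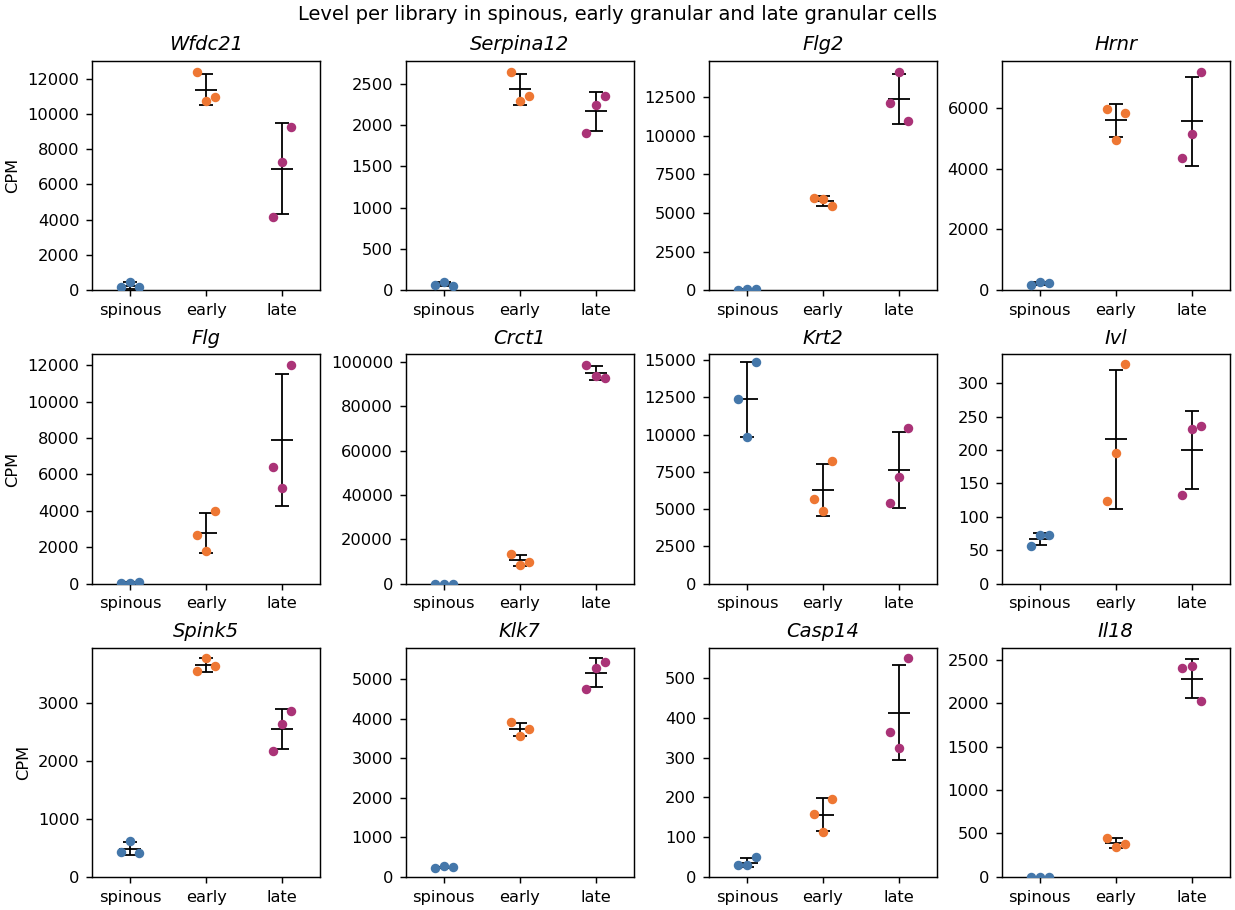
Level in CPM (linear axes from 0) of 12 genes in spinous, early granular and late granular cells; each point is 1 library (replicates 1 to 3 from left to right), with the mean and SD of 3 libraries in black. Wfdc21 and Spink5 have their highest mean in early granular cells, but neither gap to late granular cells passed in every alternative fit. Serpina12, Hrnr and Ivl also have their highest mean there, with libraries that overlap those of late granular cells. Flg2, Crct1, Casp14 and Il18 are highest in late granular cells.

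Within the class, Krt1 plus Krt10, and Krt2, fell as Lor rose. The cells were put in bins of 1 to 2% (69 cells), 2 to 4% (94), 4 to 8% (85) and 8% or more Lor (54), and levels were taken per library (mean ± SD, n = 3). The bins use the value that chose the cells, so nothing is tested. Krt1 plus Krt10 fell over the bins from 1.33% ± 0.380 to 0.942% ± 0.0205, 0.404% ± 0.169 and 0.0754% ± 0.0349 of UMIs. Krt2, the keratin of upper layers, went from 12731 ± 4572 to 480.4 ± 267 CPM between the lowest and the highest bin. Ivl, the envelope precursor involucrin, went from 338 ± 107 to 28.9 ± 6.51 CPM.

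Several genes instead climbed with Lor. Crct1, a small cysteine-rich gene of the differentiation complex, was at 776 ± 309, 3517 ± 1014, 15202 ± 4145 and 29318 ± 5509 CPM over the 4 bins. Flg2 went from 2424 ± 308 to 10616 ± 1624 CPM, Il18 (an interleukin 1 family cytokine) from 27.7 ± 20.6 to 1119.8 ± 273 CPM, and Prdm1 (the repressor Blimp1) from 62.4 ± 26.4 to 485 ± 85.5 CPM. Map1lc3a, an LC3 protein of autophagosomes, went from 1135 ± 245 to 3729 ± 339 CPM.

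Other genes changed less or not in step with Lor. Spink5, the inhibitor of shedding proteases, stood at 3588 ± 269 CPM in the lowest and 3490.2 ± 323 CPM in the highest bin. Cdsn, the corneodesmosome protein corneodesmosin, was at 2734 ± 297 and 2335 ± 142 CPM. Wfdc21 went from 8803 ± 329.7 to 13042 ± 1661 CPM, while Lor itself went from 1.49% ± 0.0847 to 9.92% ± 0.471 of UMIs between the same bins. Casp14, which processes filaggrin, was at 125 ± 43.5 and 226 ± 35.1 CPM.

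**Figure D3:**
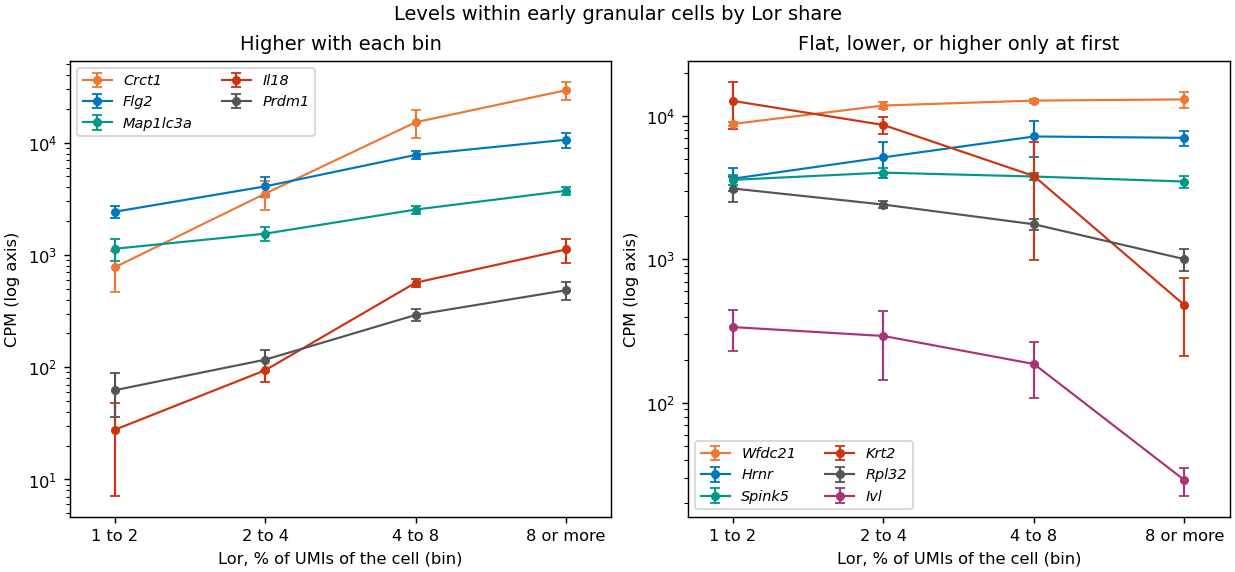
Level in CPM (log axis) within early granular cells in 4 bins of the cell's Lor share (x axis, in % of UMIs); points and bars are the mean and SD of 3 libraries, with lower bars cut short where they would pass 0. Crct1, Flg2, Map1lc3a, Il18 and Prdm1 climb with each bin, Spink5 is flat, and Krt2, Rpl32 and Ivl decline.

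Keratin was retained in part of both granular classes. Of the 302 early granular cells, the 122 with Krt1 plus Krt10 at 0.5% or more had Wfdc21 at 9129 ± 1143 CPM, Flg2 at 3244 ± 148 CPM and Crct1 at 4986 ± 1423 CPM. The other 180 had 13989 ± 708, 8226 ± 585 and 15787 ± 3763 CPM. The late granular class also held 42 cells at or above this keratin share, beside 81 below it. Those 42 had a median of 3452 ± 821 genes per cell against 1570 ± 160 in the 81 (mean of library medians, n = 3), and Krt2 at 11520 ± 2541 against 401 ± 400 CPM. Kctd4, a gene at 2 UMIs in all early granular cells, was at 246 ± 165 CPM in the 42 and 631 ± 285 CPM in the 81. Scrublet marked none of the 123, and whether the 42 are mixtures of cells was not tested further.

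Early granular and spinous cells were then compared over all genes outside the gates. UMIs were summed per class and library, 8680 genes passed the low-count filter, and edgeR's quasi-likelihood test was run with the library as a block and Benjamini-Hochberg adjustment over all tested genes. At an adjusted p of at most 0.05, 2968 genes (34.2% of those tested) were higher and 3205 (36.9%) lower in early granular cells, 71.1% in all. With at least a 2-fold difference there were 1845 higher (21.3%) and 2123 lower (24.5%). Since most genes passed, a list's count is read against these shares. In every list, a gene that passed the low-count filter only through its granular level had to come out higher. A gene that passed only through its spinous level, such as Ctsc or Tfeb below, had to come out lower. Counts and medians therefore describe the tested genes only, and the same holds in the comparison with late granular cells. Scaling to total UMIs instead of TMM factors shifted the median log2 difference of all genes from -0.09 to -0.48 and turned the split into 2186 higher and 4378 lower. The gates separate cells on 19 genes, so a gene that travels with these in single cells differs by that choice, and the tests say only that it does so alike in 3 libraries.

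**Figure D4:**
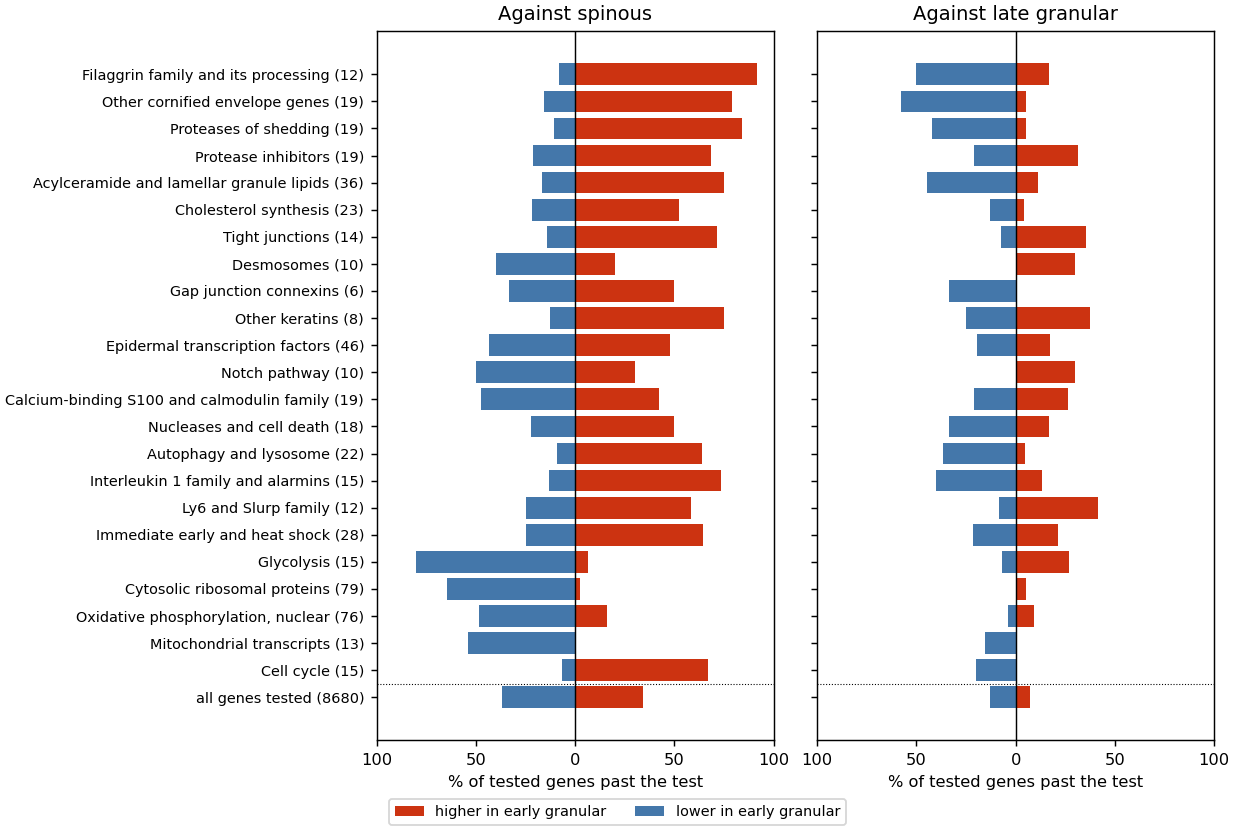
Share of the tested genes of each list (number tested in brackets) that were higher (red, to the right) or lower (blue, to the left) in early granular than in spinous cells (left) or late granular cells (right), at an edgeR adjusted p of at most 0.05; the bottom bar gives all 8680 tested genes. Envelope, filaggrin, protease and lipid lists extend right against spinous cells and, with the TMM scaling shown, left against late granular cells; with total-UMI scaling the protease and lipid lists had more higher than lower genes there (7 against 5 and 15 against 9).

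The largest rises over spinous cells joined an envelope gene with a cytokine, a growth factor and enzymes. Crct1 was at 13247, 8556 and 9653 CPM in early granular and at 10.3, 13.7 and 22.3 CPM in spinous cells (log2 9.39 ± 0.24, adjusted p = 3.0e-33; ± is the SE of the log2 difference, for all tests). Il18 was at 448, 339.8 and 375 CPM against 0.303, 1.01 and 0.688 CPM (log2 9.02 ± 0.25). Btc, the EGF receptor ligand betacellulin, was at 170.0, 214 and 199 CPM against 0.101, 0.474 and 0.402 CPM (log2 9.08 ± 0.28). For each of these 3 genes every early granular library was far above every spinous one. Il18 and Btc had so few spinous UMIs that they passed the low-count filter only through their granular level. They had to come out higher, so their values are a description and no test is attached.

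The other genes of this rank were Cpa4 (a carboxypeptidase, log2 9.20), Sod3 (extracellular superoxide dismutase, 8.99), Fmo2 (a flavin monooxygenase, 8.55), Spns2 (the sphingosine 1-phosphate exporter, 8.39), Aif1l (8.06), Dusp18 (a phosphatase, 8.03) and Atg9b (an autophagy lipid scramblase, 7.94). Genes with fewer than 10 spinous UMIs and the highest early granular levels were Lipn, 5430427M07Rik, Scgb1a1, Chil1 and Psca. These genes and Atg9b also passed the low-count filter only through their granular level and had to come out higher. The same holds for any other gene of this rank whose spinous level was too low for that filter. Lipn, a lipase of late keratinocyte differentiation, had 605 UMIs in early granular and 8 in spinous cells. 5430427M07Rik had 552 against 3, a ratio of UMI shares of 1090 (95% interval 371 to 5303, counting error only).

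Filaggrin and its processing enzymes rose together. Of 15 listed genes 12 were tested, 11 were higher and 1 lower, with a median log2 of 2.77 against -0.09 over all genes. The list includes the given markers Flg2 and Hrnr. Flg was at 2645, 1776 and 3964 CPM against 10.6, 15.9 and 105 CPM in spinous cells (log2 6.48 ± 0.28, adjusted p = 6.5e-25), with replicate 3 highest in both classes. Asprv1, the protease that cleaves profilaggrin, was at 5879 ± 507 against 129 ± 43.5 CPM. Casp14 was at 157 ± 41.8 against 36.2 ± 12 CPM, and Hal, the histidase that makes urocanic acid from filaggrin-derived histidine, at 1149 ± 36.4 against 202 ± 17.9 CPM. The 1 gene that fell was the calpain Capn1 (8.18 ± 2.14 against 38.4 ± 4.56 CPM).

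Of 38 other envelope genes 19 were tested, 15 rose and 3 fell. Besides Crct1, Kprp rose from 28.7 ± 9.87 to 540.1 ± 38.1 CPM, the cystatin Csta1 from 23.2 ± 7.47 to 1079.7 ± 232 CPM, and Cdsn from 231 ± 52.7 to 2570.1 ± 273 CPM. Lce3c rose from 0.516 ± 0.351 to 114 ± 36.8 CPM, though Lce3 genes are close copies whose reads may be split. The cross-linking enzymes parted: Tgm1 was at 275 ± 29.1 against 19.7 ± 2.64 CPM (log2 3.79) and Tgm3 at 4.21 ± 2.30 against 15.5 ± 4.11 CPM (log2 -1.90). Ivl rose by less, from 66.8 ± 9.46 to 216 ± 105 CPM (log2 1.63).

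The proteases that loosen corneodesmosomes and their inhibitors both rose. Of 19 tested shedding proteases 16 were higher and 2 lower, and of 19 tested inhibitors, the given markers Wfdc21 and Serpina12 included, 13 were higher and 4 lower. Klk7, the chymotryptic kallikrein, was at 3907, 3568 and 3729 CPM against 231, 264 and 244 CPM (log2 3.93 ± 0.16, adjusted p = 3.6e-26). Its inhibitor Spink5 was at 3553, 3784 and 3639 CPM against 429, 621 and 417 CPM (log2 2.92 ± 0.16, adjusted p = 2.8e-21). Both genes were without overlap between the classes. Klk6 had the largest protease rise (log2 6.57), with 64.5, 119 and 238 CPM in the 3 libraries. Slpi, the largest inhibitor rise (log2 6.04), was uneven, at 10.2, 4.16 and 116 CPM in replicates 1 to 3. Klk6 and Slpi were so low in spinous cells that they passed the low-count filter only through their granular level. They had to come out higher, so their values are a description and no test is attached. The cysteine protease Ctsl rose from 37.0 ± 5.40 to 903 ± 224 CPM while Ctsc, which activates serine proteases, fell from 13.2 ± 3.43 to 0.653 ± 0.811 CPM.

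Genes for acylceramides and lamellar granule lipids rose in 27 of 36 tested cases and fell in 6, with a median log2 of 1.67. Abca12, the lipid transporter of lamellar granules, was at 418 ± 17.9 against 75.7 ± 8.66 CPM. The lipoxygenases Alox12b (411 ± 47.1 against 44.4 ± 3.85 CPM) and Aloxe3 (252 ± 27.5 against 26.4 ± 2.69 CPM) and the ceramide synthase Cers3 (158 ± 15.3 against 30.8 ± 4.4 CPM) rose as well. Degs2, a sphingolipid desaturase and hydroxylase, had 126 early granular and 0 spinous UMIs, so it was at least 249-fold higher when 3 UMIs over all spinous cells are taken as the floor. The related lipoxygenase Alox12e went the other way, from 328 ± 34.6 to 59.3 ± 19.3 CPM. Of 23 cholesterol synthesis genes 12 rose and 5 fell, with Dhcr7 the largest rise (349 ± 4.4 against 94.9 ± 3.34 CPM) and Mvk the largest fall (55.4 ± 3.80 against 102 ± 9.81 CPM).

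Junction genes moved in both directions, as did all tested genes (34.2% higher and 36.9% lower). The desmosome and connexin counts were near these shares and are no result about those lists. Tight junction genes rose in 10 of 14 tested cases and fell in 2 (8 and 4 with total-UMI scaling). Cldn4 was at 846 ± 90.3 against 186 ± 18.6 CPM and the adaptor cingulin (Cgn) at 382 ± 11.3 against 38.2 ± 7.49 CPM, while tricellulin (Marveld2) fell from 16.8 ± 2.82 to 4.24 ± 1.28 CPM. Of 10 desmosome genes 2 rose and 4 fell (7 fell with total-UMI scaling), and the lower-layer desmocollin Dsc3 went from 617 ± 19.9 to 68.4 ± 28.3 CPM. Gja1, the gap junction protein connexin 43, fell from 40.3 ± 14.2 to 2.36 ± 0.774 CPM. Gjb6 was the largest of 3 connexin rises of 6 tested (log2 1.35), but its libraries overlapped and the call was lost with DESeq2 (adjusted p = 0.051) and without replicate 3 (0.13).

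Of 8 further keratin genes 6 rose and 1 fell (6 and 2 with total-UMI scaling). The 1 that fell was Krt2, from 12383, 9841 and 14842 CPM to 5704, 4860.1 and 8245 CPM (log2 -1.0 ± 0.15, adjusted p = 7.5e-08). Krt23, an acidic keratin, rose from 54.3 ± 20.3 to 1189.8 ± 110.2 CPM and Krt80 from 148 ± 30.4 to 1289 ± 153 CPM. The secreted spinous products Krtdap and Sbsn were not lower but higher, at log2 1.44 ± 0.14 and log2 2.16 ± 0.14. Mt4, a metallothionein of stratified epithelia, fell from 4331, 3232 and 4004 CPM to 410.1, 218 and 171 CPM (log2 -3.92 ± 0.21, adjusted p = 3.6e-21).

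Among 46 tested epidermal transcription factors 22 rose and 20 fell, beside 34.2% and 36.9% of all tested genes. Prdm1 was at 227, 208 and 207 CPM against 1.62, 2.31 and 3.27 CPM (log2 6.43 ± 0.20), the largest rise of the list. Its spinous level was too low to pass the low-count filter, so it had to come out higher and no test is attached. The barrier regulators Grhl3 (149 ± 31.9 against 57.3 ± 14.4 CPM) and Klf4 (1239.7, 1262 and 1429 against 556, 635 and 755 CPM) rose by less, as did the nuclear receptor Rora (1539.7 ± 137 against 463 ± 40.8 CPM). The call for Klf4 was lost, at an adjusted p of 0.051, when late granular cells with 0.5% or more keratin were left out of the shared fit. Trp63, the p63 factor of proliferating layers, fell from 150.3 ± 8.22 to 23.6 ± 6.05 CPM, Id3 from 332 ± 61.7 to 43.9 ± 18.5 CPM and Mycl from 34.3 ± 4.91 to 2.89 ± 2.27 CPM. Among 10 tested Notch pathway genes, 5 fell and 3 rose, near the shares over all genes. Notch1 went from 72.6 ± 2.06 to 17.4 ± 6.73 CPM.

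Interleukin 1 family and alarmin genes rose in 11 of 15 tested cases and fell in 2. Several of them had so few spinous UMIs that they passed the low-count filter only through their granular level and had to come out higher. After Il18 came Il1f6, the interleukin 36 alpha gene (136 ± 30.5 against 0.549 ± 0.234 CPM, log2 7.84), the decoy receptor Il1r2 (81.5 ± 35.6 against 1.86 ± 1.21 CPM) and Il1f5, the interleukin 36 receptor antagonist (1440.3 ± 189 against 64.4 ± 10.5 CPM). Il1a was at 0, 0.520 and 9.15 CPM, so its rise rested on replicate 3 and was lost without it (adjusted p = 0.31). Of 12 Ly6 and Slurp genes 7 rose and 3 fell, with the secreted Slurp1 at 5627 ± 919 against 348 ± 89.1 CPM and Lypd5 at 1572 ± 101.2 against 91.8 ± 8.00 CPM.

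Autophagy and lysosome genes rose in 14 of 22 tested cases and fell in 2 (12 and 6 with total-UMI scaling). Map1lc3a was at 2325, 2062 and 1814 CPM against 301, 319 and 244 CPM (log2 2.84 ± 0.15, adjusted p = 9.6e-22), and the mitophagy receptor Bnip3l at 510.0 ± 73.3 against 119 ± 12 CPM. Tfeb, a transcription factor of lysosomal genes, fell from 7.59 ± 0.727 to 0.571 ± 0.599 CPM. Of 18 nuclease and cell death genes 9 rose and 4 fell (8 and 8 with total-UMI scaling). Dnase1l2, a DNA-degrading enzyme of cornification, was at 378 ± 73.1 against 15.8 ± 3.58 CPM and the exonuclease Trex2 at 379 ± 86.1 against 31.3 ± 8.93 CPM.

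Glycolysis genes fell in 12 of 15 tested cases and rose in 1, with Gapdh at 173 ± 40.1 against 468 ± 31.2 CPM. Cytosolic ribosomal protein genes fell in 51 of 79 cases and rose in 2, with a median log2 of -0.42. Rpl32 was at 1988, 2000.2 and 2035 CPM against 4559, 3997 and 3768 CPM (log2 -1.03 ± 0.15, adjusted p = 2.7e-08). Without replicate 2, 31 fell and 1 rose. With total-UMI scaling 76 fell and 0 rose, and with the keratin-rich late granular cells left out of the shared fit 1 fell and 0 rose. Nuclear genes of oxidative phosphorylation fell in 37 of 76 cases and rose in 12 (17 and 1 in that last alternative, 59 and 6 with total-UMI scaling), yet Ndufa4 rose from 534 ± 41.9 to 3597 ± 369.6 CPM. Of 13 mitochondrial transcripts 7 fell and 0 rose, and the count of falls was 0 in that same alternative. The limit on mitochondrial UMIs used these transcripts to choose the cells of all classes, so their counts are a description and no test. A limit of 5% left 1810 of 2101 spinous and 297 of 302 early granular cells, with 6 falls and 0 rises.

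Immediate early and heat shock genes, which can also respond to dissociation, rose in 18 of 28 tested cases and fell in 7. Ier3 was at 379 ± 78.2 against 42.9 ± 8.96 CPM, Jun at 962 ± 142 against 422 ± 125 CPM and the small heat shock gene Hspb1 at 6684 ± 369 against 2098 ± 310.4 CPM, while the chaperonin Hspe1 fell from 77.8 ± 5.81 to 14.1 ± 2.12 CPM. The part of cell handling in these values was not tested. Calcium-binding S100, annexin and calmodulin genes were divided, with 8 of 19 higher and 9 lower, near the shares over all genes (34.2% and 36.9%). Anxa9 rose from 7.99 ± 1.92 to 324 ± 15.8 CPM and S100a11 fell from 549 ± 72.9 to 53.9 ± 11.9 CPM.

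Of 15 tested cell cycle genes 10 were higher and 1, Pcna, lower. This rested on few cells: 6 of the 302 early granular cells held 403 of the list's 760 UMIs (53.0%). The count of rises was 3 without replicate 1, 4 without replicate 2, 4 without the library block, 8 with total-UMI scaling and 0 after thinning each cell to 2000 UMIs.

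The other largest falls were Clca3a2, 4833423E24Rik, the water and glycerol channel Aqp3, Serpinb3b, 1810037I17Rik, Mettl7a1, Tns4, the creatine kinase Ckmt1 and the tetraspanin Cd81, at log2 values from -4.34 to -3.38. Aqp3 was at 10.2, 14 and 14.7 CPM against 304, 145 and 223 CPM (log2 -3.99 ± 0.20, adjusted p = 1.2e-22). Clca3a2 was uneven, at 0.787, 22.9 and 7.56 CPM in the 3 early granular profiles against 141, 214 and 277 CPM in spinous cells. Serpinb3b has close paralogs, so its counts are uncertain.

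Late granular cells were compared in the same fit, so both comparisons share the early granular profiles. At an adjusted p of at most 0.05, 614 genes (7.07%) were higher and 1106 (12.7%) lower in early granular cells, 19.8% of 8680, and with at least a 2-fold difference 243 (2.8%) and 813 (9.37%). This split depended on scaling: with total UMIs the median log2 of all genes moved from 0.20 to 0.80, and 3748 genes were higher against 733 lower. Differences smaller than that shift of 0.60 turn sign or size with the scaling. The count of higher genes was 352 without replicate 1, 226 without replicate 2 and 442 without replicate 3, against 1365 when only the 81 late granular cells under 0.5% keratin were used, with 924 lower.

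The genes farthest below their late granular level were nearly silent in early cells. Csnk1e, a casein kinase 1 gene, was at 6.30, 2.08 and 1.19 CPM against 1176, 772 and 791 CPM (log2 -8.35 ± 0.25). Its early granular level was too low to pass the low-count filter, so its values are a description and no test is attached. Krtap3-2, a keratin-associated protein gene, was at 38.6, 12.5 and 5.17 CPM against 6625, 2618 and 2172 CPM (log2 -7.82 ± 0.29, adjusted p = 8.5e-27). After them came Lnx1, Tmem56, Gramd1c, 2210017I01Rik, Gm2a, Ptpre, Runx1 and Tmem229b, at log2 values from -7.15 to -5.31. Of genes with fewer than 10 early granular UMIs, Kctd4 had 2 against 925 and Gpsm1 2 against 557, ratios of late to early UMI shares of 1265 (95% interval 349 to 10463) and 762 (210 to 6307), and Edn2, Gm38119 and Plcxd1 had 9, 4 and 4. These genes were also too low in early granular cells to pass the low-count filter, so their counts and ratios are a description. Any gene that passed it only through its late granular level had to come out lower.

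Many envelope and filaggrin genes were lower in early than in late granular cells. Of 19 envelope genes 11 were lower in early than in late granular cells and 1 higher, and of 12 filaggrin-related genes 6 were lower and 2 higher. With total-UMI scaling 10 envelope genes were lower and 6 higher, and 6 filaggrin-related genes were lower and 5 higher. Crct1 was at 10485 ± 2454 against 94922 ± 3050.2 CPM (log2 -3.19), Kprp at 540.1 ± 38.1 against 6213 ± 1352 CPM, Lce3c at 114 ± 36.8 against 3644 ± 1336 CPM and Asprv1 at 5879 ± 507 against 24788 ± 780.3 CPM, each early granular value first. Flg was at 2645, 1776 and 3964 CPM in early and 6432, 5226 and 11994 CPM in late cells (log2 -1.45 ± 0.22, adjusted p = 9.2e-07), a call lost with DESeq2 or without the library block (highest adjusted p = 0.071). Ivl did not pass the test, at 216 ± 105 against 200.2 ± 58.7 CPM with overlapping libraries. It passed as higher in early cells at log2 2.06 when only the keratin-poor late cells were used.

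Autophagy genes included several that were far below the late granular level. Gabarapl2, an ATG8 family protein, was at 567, 516 and 487 CPM against 6956, 4266 and 5701 CPM (log2 -3.42 ± 0.17, adjusted p = 1.6e-22). Bnip3 (log2 -3.49), Bnip3l (-2.96), Atg9b (-2.98), Map1lc3b (-2.28) and Map1lc3a (-1.83) were lower too, so that 8 of 22 tested genes were lower and 1, Atg3, higher. With total-UMI scaling the list had 8 lower and 8 higher. Il18 was at 448, 339.8 and 375 CPM in early and 2401, 2428 and 2022 CPM in late cells (log2 -2.56 ± 0.16, adjusted p = 3.2e-18). Il1r2 was lower at 81.5 ± 35.6 against 775 ± 144 CPM, and Il1a at 3.22 ± 5.14 against 99.3 ± 38.7 CPM. Il1f6 (adjusted p = 0.57) and Il1f5 (adjusted p = 0.13) did not pass.

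The shedding proteases were lower in 8 of 19 tested cases and higher in 1, but with total-UMI scaling 5 were lower and 7 higher. Prss8 was at 86.0 ± 27.8 against 772 ± 49.9 CPM (log2 -3.22) and Ctsl at 903 ± 224 against 2867 ± 440.4 CPM (-1.68). Klk7 (log2 -0.47), Krtdap (-0.38) and Sbsn (-0.41) passed as lower but turned positive with total-UMI scaling. Lipid genes were lower in 16 of 36 cases and higher in 4, and with total-UMI scaling 9 were lower and 15 higher. The phospholipase Plb1 was at 1.05 ± 0.905 against 82.1 ± 34.2 CPM and Aloxe3 at 252 ± 27.5 against 620.3 ± 11.3 CPM, while the fatty acid elongase Elovl1 was higher at 1925 ± 105 against 1005 ± 217 CPM. Trex2 (log2 -1.93), Casp14 (-1.40) and Dnase1l2 (-1.40) were lower too.

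Some genes were instead higher in early than in late granular cells. Krt17 was at 87.4, 64.5 and 57.3 CPM against 0, 14.3 and 4.28 CPM in late cells (log2 3.32 ± 0.50, adjusted p = 6.2e-07) and also above its spinous level of 10.9 ± 6.60 CPM (log2 2.64). Car6, a secreted carbonic anhydrase, was at 217, 240.4 and 222 CPM against 16.6, 63.5 and 82.7 CPM (log2 1.85 ± 0.23, adjusted p = 7.5e-09). The rest of the 10 largest were Baiap2l2, 2310043M15Rik, Dusp16, Cln6, Acot1, Flrt3, Ubash3b and Atp12a (log2 1.81 to 1.47), of which 2310043M15Rik, Flrt3 and Atp12a lost the call after thinning to 2000 UMIs.

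Tight junction genes were among the higher ones: Cldn1, Cldn3, Cldn4, Cldn23 and Ocln of 14 tested were higher and 1, Pard6b, lower, and 3 were higher with DESeq2, without replicate 1 or without replicate 2, with Cldn4 at 846 ± 90.3 against 468 ± 129.7 CPM (log2 0.84). Spink5 was higher in early cells by 0.52 on the log2 scale (adjusted p = 0.0090), a call lost without replicate 1 and without replicate 2 (highest adjusted p = 0.15). Slurp1 was at 5627 ± 919 against 3376 ± 1262 CPM (log2 0.76, lost without replicate 1), Klk5 at 635 ± 67.8 against 381 ± 144 CPM (0.73) and Hspb1 at 6684 ± 369 against 3887 ± 1011 CPM (0.80). The desmosome gene Perp was at 5448, 4981 and 4961 CPM against 2589, 3279 and 3838 CPM (log2 0.66 ± 0.15, adjusted p = 5.5e-04). Krt2 did not pass (log2 -0.28 ± 0.15, adjusted p = 0.19), and its direction depended on the setting. It passed as lower in 5 alternatives: without replicate 1 (log2 -0.45), with DESeq2 (-0.39), with the Lce1 limit at 1% (-0.36), with Lor of at least 2% (-0.75) and without the low-count filter (-0.33). It passed as higher with total-UMI scaling (0.29) and against the keratin-poor late cells alone (3.49).

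By position, the genes of the differentiation complex were mostly higher than in spinous cells. Lor lies on mm10 chromosome 3 at 92080271 to 92083142 (GENCODE M21), with Crct1 at 93014205 to 93015687, Flg2 at 93197278 to 93221391, Flg at 93273523 to 93293686, Hrnr at 93319749 to 93333570 and Ivl at 92570902 to 92573735. Between S100a1 and S100a11 (90511034 to 93526287) the files held 79 genes, of which 15 were gate genes and 27 were tested. Of these 21 were higher and 3 lower than in spinous cells (median log2 4.24), and 3 higher and 16 lower than in late granular cells (median -1.08). The 3 that were lower than in spinous cells were S100a6, S100a11 and S100a13. This window was chosen after the values were seen, and genes that passed the filter only through their granular level had to differ. Wfdc21 (chromosome 11, 83746940 to 83752642), Serpina12 (chromosome 12, 104028769 to 104044443) and Il18 (chromosome 9, 50554827 to 50581840) lie elsewhere.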

How the data were processed

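Cell Ranger 3.1.0 and build mm10 are named in the submitters' processing notes, and the deposited matrices are unnormalized UMI counts (31053 genes) of 3 libraries made with 10x V(D)J chemistry, which counts 5' ends, per the labels' protocols. Of 6078 barcodes 395 had under 500 genes and 598 over 10% mitochondrial UMIs (738 left out in all); Scrublet (scanpy 1.11.5, 0.8% expected per 1000 cells) marked 30 of the rest, which stayed in. The members and gene lists were chosen with earlier results of these data known. Counts were summed per library and class (9 profiles), the 19 gate genes left out, and tested with edgeR 4.0.16 (TMM, filterByExpr, quasi-likelihood, library block, Benjamini-Hochberg). Classes of a library share their cells' source, so the library pairs them; deviations from class means correlated across genes with r of 0.127 to 0.233 for spinous and 0.0215 to 0.0637 for late granular profiles. CPM are TMM-scaled, and in bins and marker sums plain.

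Named were, per comparison, the 10 largest rises and falls (at least 50 CPM in the higher class, 10 UMIs in the lower), the 5 most abundant with fewer UMIs, the markers, each list's largest rise and fall, and genes picked for their role, some after their values were seen. The fit was tested on simulated data. No test used cells as replicates, and free RNA in droplets was not measured.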

Additional observations from a re-analysis of the deposited data

How the results depend on the processing

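Of 112 genes named against spinous cells 104 were called in every one of 16 alternatives in which they were tested, and of 98 called against late granular cells 65 were. Against spinous cells, thinning each cell to 2000 UMIs left 2374 calls (1196 higher, 1178 lower) and turned Calm4 to -0.018. Leaving out a replicate gave 5081 to 5781 calls, with 2500 to 2786 higher and 2581 to 2995 lower. Against late granular cells, total-UMI scaling gave 4481 calls (3748 higher, 733 lower), thinning 695 (231 higher, 464 lower), DESeq2 311 higher, the keratin-poor late cells alone 1365 higher, and leaving out a replicate 1059 to 1432 calls, 226 to 442 higher and 833 to 1080 lower. Directions turned with total-UMI scaling for mt-Nd4 (0.16), Krt2 (0.29), Klk7 (0.10), Krtdap (0.19), Sbsn (0.15), Klf4 (0.38), Cers3 (0.40), Lypd5 (0.35) and Lipk (0.087), with the keratin-poor late cells for Krt2 (3.49), and with thinning for Sqle (-0.075). The share of early granular cells was 7.44% with a 5% mitochondrial limit and 4.30% with Lor of at least 2%, and 4.92 to 5.85% without 1 replicate. Fewer UMIs or samples enter the thinned and left-out fits; otherwise the cause was not tested.

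Without the replicate block that pairs classes of a library, 5971 genes passed against spinous cells (2857 higher, 3114 lower) and 1510 against late granular cells (462 higher, 1048 lower); 17 named genes lost their call. The fits with early cells under 0.5% Krt5 plus Krt14, with keratin-poor late cells, and the shares without 1 replicate were added after seeing the data. Late granular profiles rest on 12 cells in replicate 1.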
